A study of Mus musculus with 6 samples.

Results

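The genes described here are 9 genes of the mitochondrial route to cell death: 8 members of the BCL2 family (Bid, Bax, Bak1, Bcl2, Bcl2l1, Bcl2l11, Mcl1 and Bbc3) and the initiator caspase gene Casp9. All probe sets that the array annotation pairs with 1 of these symbols were taken. They numbered 29 of 45037 probe sets tested and stood for 8 of the 18193 genes with a named probe set. Bax had no probe set under its symbol in the annotation and was not analysed here. RNA was read on 6 Affymetrix Mouse Genome 430 2.0 arrays, 3 from POMCDicerKO mice and 3 from controls, all of arcuate hypothalamus dissected from mice 2 weeks old, whose strain was a mix of C57Bl/6J with FVB/N and 129. POMCDicerKO mice lack the microRNA-processing enzyme Dicer in Pomc-expressing cells, and the series title names neurodegeneration and obesity as their phenotype. Not given in the sources used here are the Cre line, the alleles that the controls carry, and whether a sample held 1 animal or a pool. The p-values set the difference between groups against the spread between these samples.

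BCL2 proteins decide whether the outer mitochondrial membrane is opened. Bcl2, Bcl2l1 (BCL-XL) and Mcl1 keep it closed, Bax and Bak1 form the pores, and the BH3-only proteins (Bid, Bcl2l11 or BIM, Bbc3 or PUMA) pass on death signals by binding the others. Cytochrome c set free through the pores assembles APAF1 into the apoptosome, which activates caspase 9. In developing brain this pathway removes surplus neurons. Much of its control acts on the proteins, by cleavage, phosphorylation and degradation, which an RNA array does not read.

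Transcripts of Bcl2 and Bcl2l11 are textbook microRNA targets, so the sequences of those microRNAs are shown with the seed, bases 2 to 8, in capitals. They are RefSeq mature sequences from assembly GRCm38.p6, written 5′ to 3′. Bcl2 is known as a target of the first 3 and Bcl2l11 of the last 3. The mature microRNAs were not analysed here.
miR-16-5p: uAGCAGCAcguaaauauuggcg
miR-15a-5p: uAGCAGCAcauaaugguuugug
miR-34a-5p: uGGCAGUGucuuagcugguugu
miR-17-5p: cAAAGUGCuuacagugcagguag
miR-20a-5p: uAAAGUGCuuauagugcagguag
miR-92a-3p: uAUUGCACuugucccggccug

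miR-16 and miR-15a share the seed AGCAGCA, and miR-17 and miR-20a share AAAGUGC. Positions given are those of the mature sequences. That of Mir15a lies on the minus strand at chr14:61632075-61632096, and that of Mir16-1, next to it, at chr14:61631936-61631957. Mir16-2, on chromosome 3, holds the same miR-16-5p. That of Mir17 lies on the plus strand at chr14:115043684-115043706 with that of Mir20a at chr14:115044183-115044205. That of Mir34a lies on the plus strand at chr4:150068473-150068494. miR-92a-3p is held by Mir92-1 on chromosome 14 and Mir92-2 on chromosome X.

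Values are log2 expression values, on which 1 unit is a doubling. Arrays were alike, with medians between 6.02 and 6.05 and Pearson r across probe sets between 0.994 and 0.997. A probe set with a mean below 6 lies in the dimmer part of the scale, where RMA compresses differences. Pomc, the defining transcript of the targeted arcuate neurons, was well above this. Its main probe set, 1433800_a_at, read 9.35, 9.71 and 9.43 in POMCDicerKO and 9.94, 10.87 and 9.76 in controls. The POMCDicerKO values were all lower here, with a log2 fold change of -0.69 ± 0.27 (SE; limma adjusted p = 1), or -0.35 without control 2. At the other Pomc probe set, 1455858_x_at, the log2 fold change was -0.67 ± 0.22 (SE; exact permutation p = 0.2). There the groups overlapped, with POMCDicerKO 2 at 9.40 and control 3 at 9.35. In bulk tissue, fewer cells of a type and less RNA per cell cannot be told apart. Dicer1 (1460571_at) was at 0.018 ± 0.068 (SE), and the share of POMC cells in the dissected tissue was not measured here, so this value does not check the genotype labels.

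None of the 29 probe sets passed limma's threshold, an adjusted p under 0.05 over all probe sets (0 of 29, against 0% of all probe sets). At an unadjusted p under 0.05 there were 3 of 29 (10.3%), where 2.44% of all probe sets reached it. The groups did not overlap at 3 of 29 (10.3%), against 6.36% of all probe sets. The same probe sets made up both counts: 1417045_at and 1447873_x_at of Bid, both lower in POMCDicerKO, and 1426050_at of Bcl2l1, higher in POMCDicerKO. The probe sets of a gene share these arrays and are not separate evidence, and 2 of these 3 had a mean below 6. Over the 29, 14 were higher and 15 lower in POMCDicerKO. For a single value per gene, its probe set of highest mean over the 6 arrays was taken as the main one. By these, 3 of 8 genes were higher and 5 lower, with a median log2 fold change of -0.046 against -0.0099 over all genes. The median size of the change, 0.057 in either direction, lay near the 0.051 of all genes.

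**Figure D1:**
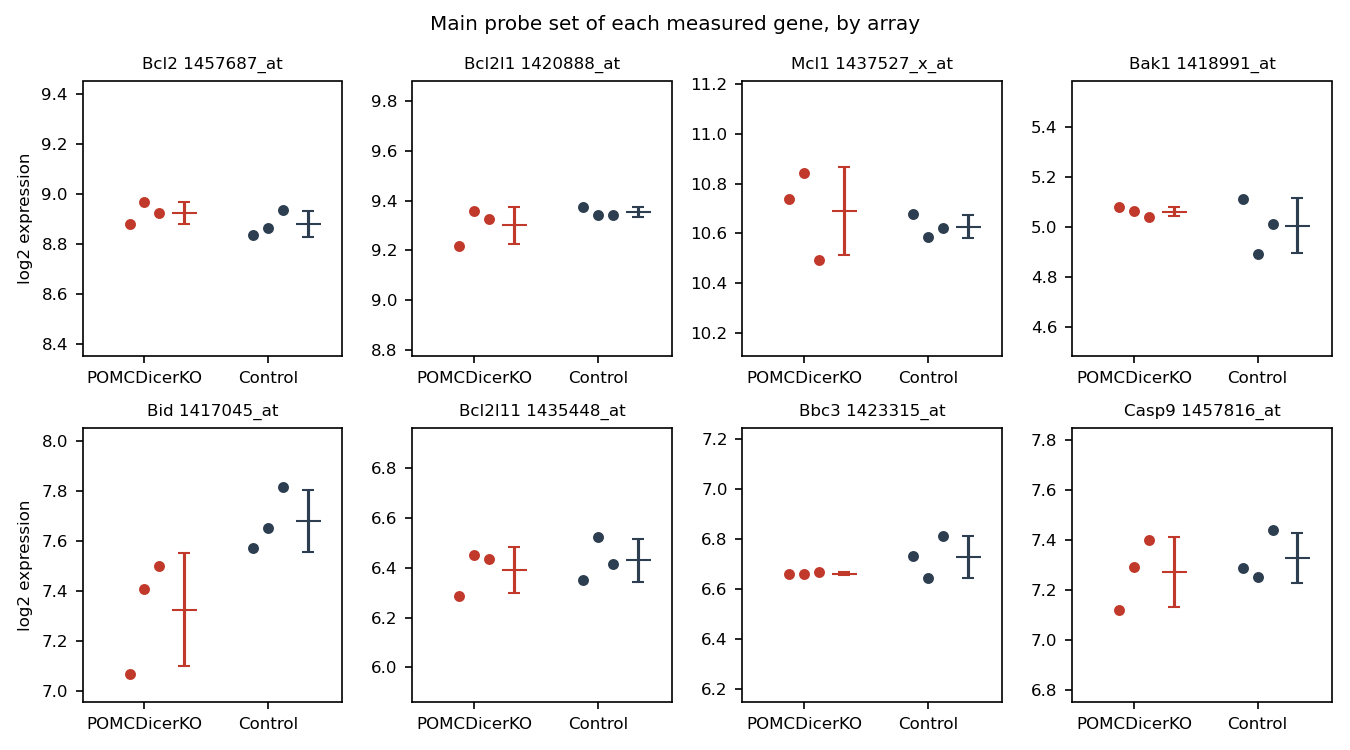
Log2 expression (y axis, a window of equal height in each panel) of the main probe set of each of the 8 measured genes, with POMCDicerKO left and Control right. Each point is 1 array, and the bar beside the points gives the mean and SD (n = 3). Only Bid separated the groups, with all POMCDicerKO arrays between 7.07 and 7.50 and all controls between 7.57 and 7.82.

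Among the guardians of survival, Bcl2 encodes the founding member of the family, a protein of the outer mitochondrial membrane and the endoplasmic reticulum. Its main probe set, 1457687_at, read 8.88, 8.97 and 8.92 in POMCDicerKO and 8.84, 8.86 and 8.94 in controls. The groups overlapped, and the log2 fold change was 0.045 ± 0.064 (SE; limma adjusted p = 1), with a 95% interval from -0.10 to 0.19. The other Bcl2 probe sets lay between -0.091 (1437122_at) and 0.024 (1440770_at), so that 3 of 5 were lower and 2 higher. All 5 had a mean of at least 6. Bcl2 is the known target of miR-15a, miR-16 and miR-34a, and the interval of its main probe set ended at a rise of 1.14-fold. That of 1440770_at left more room, up to a rise of 1.25-fold. These bounds are for the whole tissue, and Bcl2 in the cells that lack Dicer was not measured here.

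Bcl2l1 encodes BCL-XL, the form that mature neurons chiefly rely on. At its main probe set, 1420888_at, the values were 9.22, 9.36 and 9.33 in POMCDicerKO and 9.38, 9.34 and 9.34 in controls. POMCDicerKO 1 and 3 stood below the controls and POMCDicerKO 2 among them, and the log2 fold change was -0.053 ± 0.065 (SE), with an interval from -0.21 to 0.099. The 3 dimmer probe sets all pointed the other way, at 0.072 (1426191_a_at), 0.060 (1420887_a_at) and 0.17 (1426050_at). The last read 4.42, 4.35 and 4.37 in POMCDicerKO and 4.13, 4.18 and 4.32 in controls. Here the groups did not overlap (unadjusted limma p of 0.0487; adjusted p = 1; exact permutation p = 0.1), but with a mean of 4.29 this probe set was brighter than only 17.6% of all probe sets.

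Mcl1 encodes a short-lived survival protein whose level follows new transcription closely. Its main probe set, 1437527_x_at, read 10.74, 10.84 and 10.50 in POMCDicerKO and 10.68, 10.58 and 10.62 in controls, a log2 fold change of 0.064 ± 0.096 (SE). The POMCDicerKO arrays spread to both sides of the controls, with SDs of 0.18 in POMCDicerKO and 0.047 in controls. All 6 Mcl1 probe sets were highest on POMCDicerKO 2 and, within that group, lowest on POMCDicerKO 3. Of the 6, 5 had log2 fold changes between -0.018 and 0.064. The sixth, 1416881_at, stood at 0.35 ± 0.16 (SE; unadjusted limma p of 0.0641; adjusted p = 1; exact permutation p = 0.2). It read 7.18, 7.30 and 6.82 in POMCDicerKO and 6.50, 6.70 and 7.03 in controls, and control 3 lay within the POMCDicerKO range. Without POMCDicerKO 2 the main probe set was at -0.011.

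**Figure D2:**
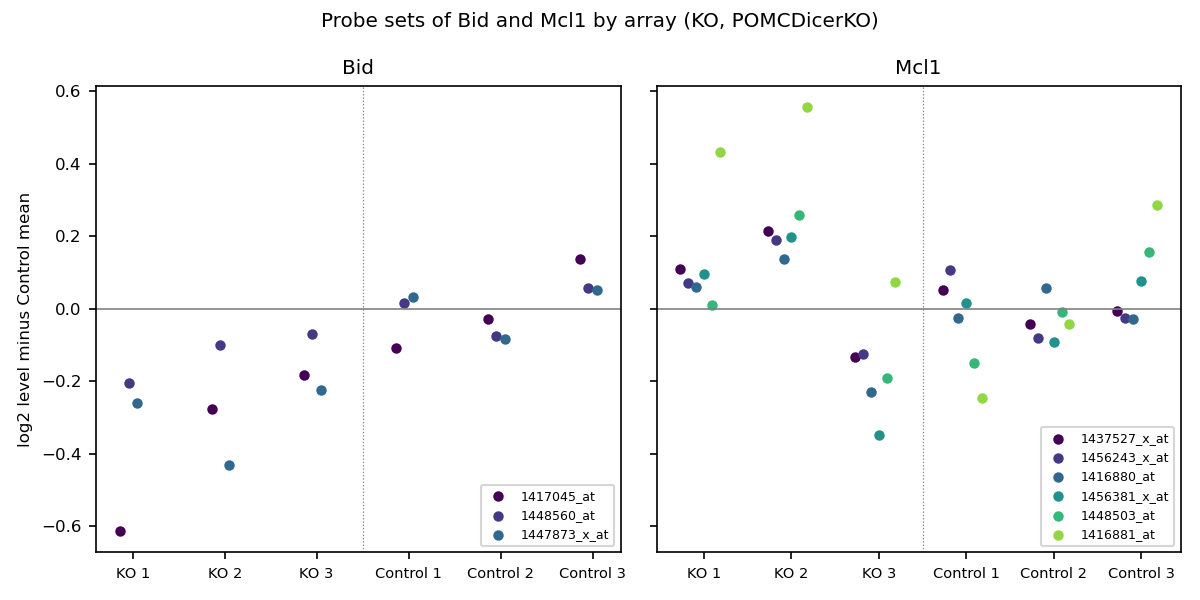
Level of each probe set of Bid (3) and Mcl1 (6) on each array, as the log2 value minus the Control mean of that probe set (y axis), with the POMCDicerKO arrays (KO) left of the Control arrays. Every Bid point of POMCDicerKO lies below 0, while the Mcl1 points of POMCDicerKO 2 all lie above 0 and those of POMCDicerKO 3 lie below 0 at 5 of 6 probe sets.

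The pore-forming proteins were represented by Bak1. The main one, 1418991_at, was dim, at 5.08, 5.06 and 5.04 in POMCDicerKO and 5.11, 4.89 and 5.01 in controls. The POMCDicerKO arrays lay inside the control range, and the log2 fold change was 0.057 ± 0.074 (SE; limma adjusted p = 1). The second probe set, 1425716_s_at, gave -0.061 ± 0.093, with a mean of 4.32. Neurons are known to make a Bak1 splice form of their own, and these probe sets were not assigned to splice forms here.

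Of the 3 BH3-only genes described here in full, Bid was the one whose groups separated. Bid is cut by caspase 8, and its truncated form carries a death receptor signal to the mitochondria. Its main probe set, 1417045_at, read 7.07, 7.41 and 7.50 in POMCDicerKO and 7.57, 7.65 and 7.82 in controls. All POMCDicerKO values were lower, averaging 7.32 ± 0.23 in POMCDicerKO against 7.68 ± 0.12 in controls (SD, n = 3 each). The log2 fold change was -0.36 ± 0.12 (SE), or 1.28-fold, with a 95% interval from -0.64 to -0.073. The unadjusted limma p was 0.0201 and the adjusted p = 1, and the two-sided exact permutation p was 0.1, the smallest that 3 against 3 arrays can give.

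A second Bid probe set, 1447873_x_at, read 5.23, 5.06 and 5.27 in POMCDicerKO and 5.52, 5.41 and 5.54 in controls. Again the groups did not overlap, with a log2 fold change of -0.30 ± 0.080 (SE; unadjusted limma p of 0.00551; adjusted p = 1; exact permutation p = 0.1). The third, 1448560_at, gave -0.13 ± 0.070 (SE), at 5.46, 5.57 and 5.60 in POMCDicerKO and 5.68, 5.59 and 5.72 in controls, where POMCDicerKO 3 lay just above control 2. Both of these were dim, and an _x_at probe set can hold probes that match other transcripts. The main probe sets of Mcl1 (1437527_x_at), Bik (1449836_x_at) and Gsn (1456312_x_at) are of this kind too. The arrays did not order alike for Bid: POMCDicerKO 1 was lowest at 1417045_at and POMCDicerKO 2 at 1447873_x_at. Without POMCDicerKO 1 the main Bid probe set stood at -0.23, which is the smallest size with any single array left out. Without controls 1 and 2 it was at -0.49, with control 3 as the only control.

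Cell type markers also differed between these arrays, and their part in the Bid values was not tested. All 7 meningeal fibroblast markers were lower in POMCDicerKO, with a mean level of 6.29 to 7.08 in POMCDicerKO and 6.85 to 8.45 in controls. Control 3 had the lowest control level of these markers, 6.85. Of 9 microglia markers 8 were higher, at 8.25 to 8.32 in POMCDicerKO and 8.07 to 8.30 in controls. All 9 myelin markers measured were higher, at 10.49 to 11.15 in POMCDicerKO and 10.23 to 10.50 in controls, and POMCDicerKO 1 was the highest. Of the 3 blood cell markers measured, all were lower, at 5.64 to 5.86 in POMCDicerKO and 5.72 to 7.12 in controls. General neuron markers lay at 11.80 to 11.92 in POMCDicerKO and 11.71 to 11.89 in controls. Astrocyte markers lay at 10.39 to 10.58 in POMCDicerKO and 10.46 to 10.66 in controls, and endothelial markers at 7.53 to 7.65 in POMCDicerKO and 7.46 to 7.57 in controls. Of 5 POMC neuron markers 4 were lower, at 8.30 to 8.62 in POMCDicerKO and 8.58 to 8.97 in controls, and both AgRP/NPY markers measured were lower, at 10.11 to 10.99 in POMCDicerKO and 10.94 to 11.22 in controls. Pituitary markers ranged from 5.12 to 7.42 in POMCDicerKO and from 6.10 to 6.67 in controls. No marker passed limma's threshold.

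Bcl2l11 encodes BIM, which rises at the transcript level when neurons lose trophic support. The main Bcl2l11 probe set, 1435448_at, read 6.28, 6.45 and 6.44 in POMCDicerKO and 6.35, 6.52 and 6.41 in controls. The groups overlapped, at a log2 fold change of -0.038 ± 0.078 (SE; limma adjusted p = 1) and an interval from -0.22 to 0.14. A second probe set of similar mean, 1456005_a_at, pointed the other way at 0.17 ± 0.11 (SE). It read 6.18, 6.31 and 6.59 in POMCDicerKO and 6.28, 6.16 and 6.14 in controls, so that POMCDicerKO 2 and 3 lay above the controls and POMCDicerKO 1 among them. The 3 dimmer probe sets gave 0.16 (1435449_at), 0.012 (1456006_at) and -0.075 (1426334_a_at). Of the 5, 3 were higher and 2 lower. For the known target of miR-17, miR-20a and miR-92a, the interval at the main probe set ended at a rise of 1.10-fold and that at 1456005_a_at at 1.34-fold. Both are bounds for the whole tissue, and Bcl2l11 in the cells that lack Dicer was not measured here.

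Bbc3 encodes PUMA, which p53 switches on after DNA damage. Its single probe set, 1423315_at, read 6.66, 6.66 and 6.67 in POMCDicerKO and 6.73, 6.64 and 6.81 in controls. The POMCDicerKO arrays lay inside the control range, with SDs of 0.0043 in POMCDicerKO and 0.084 in controls. The log2 fold change was -0.067 ± 0.067 (SE; limma adjusted p = 1), with an interval from -0.22 to 0.090.

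Casp9 encodes the caspase that the apoptosome activates. The main probe set, 1457816_at, read 7.12, 7.29 and 7.40 in POMCDicerKO and 7.29, 7.25 and 7.44 in controls. The groups overlapped, and the log2 fold change was -0.056 ± 0.092 (SE), with an interval from -0.27 to 0.16. The probe set 1437537_at gave -0.063 ± 0.090, and the dimmer 1426125_a_at gave 0.026 ± 0.068. None passed (limma adjusted p = 1).

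**Figure D3:**
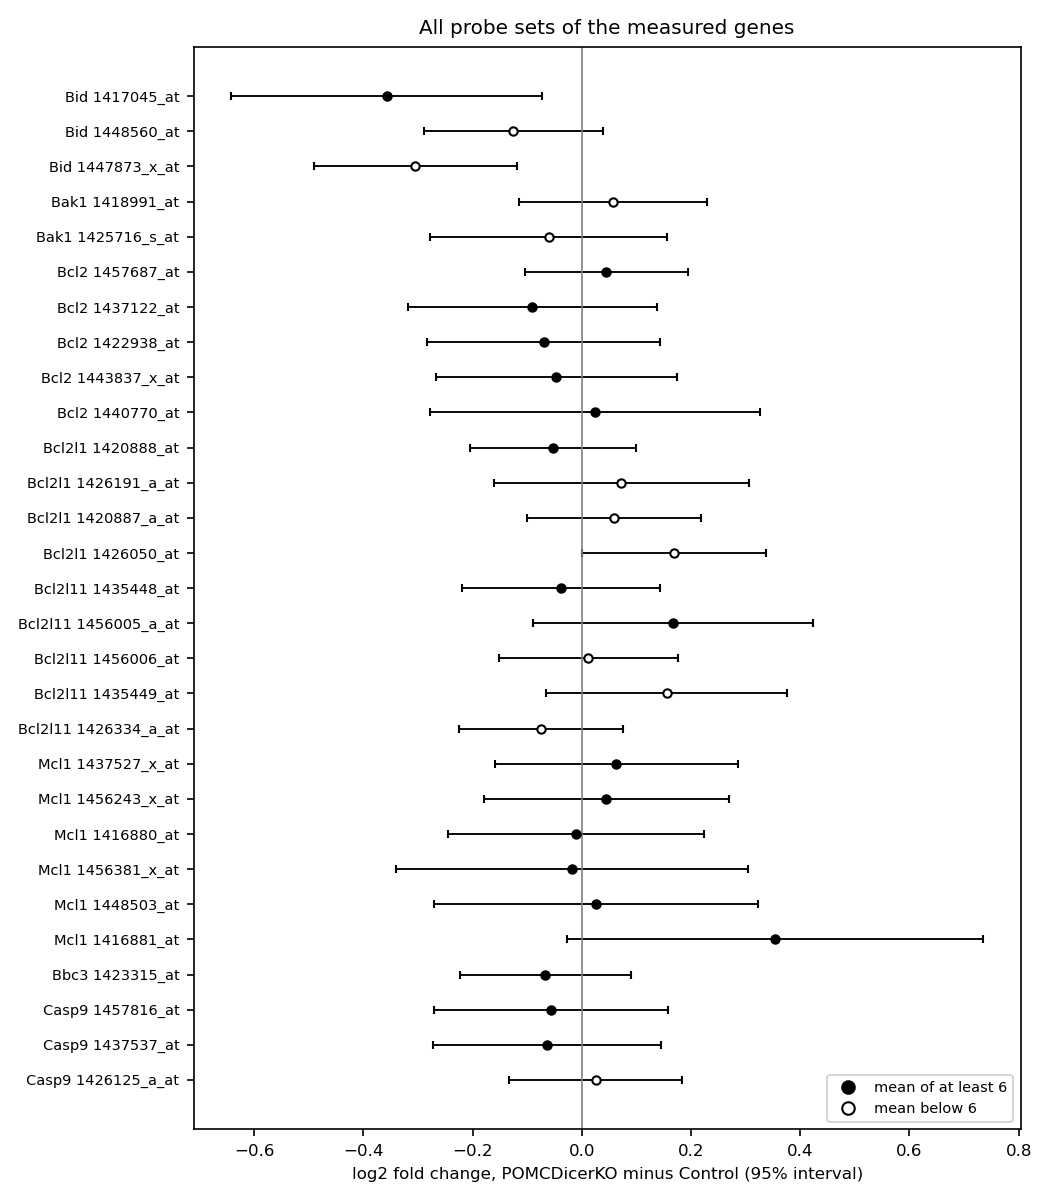
Log2 fold change, POMCDicerKO minus Control (x axis), of all 29 probe sets of the 8 measured genes, with limma's 95% interval as the bar. Filled points have a mean of at least 6 over all arrays and open points a mean below 6. Intervals that leave out 0 belong to Bid 1417045_at, Bid 1447873_x_at and Bcl2l1 1426050_at, and the intervals are not adjusted for the number of probe sets.

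For the 7 measured genes other than Bid, log2 fold changes of the main probe sets lay between -0.067 and 0.064. The 95% intervals of these main probe sets all lay between -0.27 and 0.29, that is, within a fall of 1.21-fold and a rise of 1.22-fold. Other probe sets of the same genes left more room. The interval of Mcl1 1416881_at reached 0.73, a rise of 1.66-fold, and that of Bcl2l11 1456005_a_at reached 0.42, a rise of 1.34-fold. Downwards, that of Mcl1 1456381_x_at reached -0.34, a fall of 1.27-fold. A larger change confined to a small share of the cells would be diluted to such sizes. Exact permutation p values of the main probe sets were 0.3 or more.

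Grouped by role, the 3 survival genes and the 5 death-promoting genes measured are described without a test. Relative to the control mean, the survival genes averaged -0.0085, 0.10 and -0.039 on POMCDicerKO arrays 1 to 3, and 0.0093, -0.023 and 0.013 on controls 1 to 3. The death-promoting genes averaged -0.19, -0.059 and -0.026 on the POMCDicerKO arrays and -0.023, -0.042 and 0.064 on the controls. For the death-promoting genes POMCDicerKO 1 stood lowest, POMCDicerKO 2 just below the lowest control and POMCDicerKO 3 among the controls. This average includes Bid, already described as separating the groups, and is not separate evidence. On POMCDicerKO 2, Bid was at -0.28, while Bak1 was at 0.061, Bcl2l11 at 0.023, Bbc3 at -0.070 and Casp9 at -0.035. On POMCDicerKO 1, Bid and Casp9, at -0.61 and -0.21, were the lowest of the 5.

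By position the genes have little in common. Bid lies on chromosome 6, Bak1 on 17, Bcl2 on 1, Mcl1 on 3, Bbc3 on 7 and Casp9 on 4, while Bcl2l1 and Bcl2l11 are both on chromosome 2. None shares chromosome 12 with Dicer1 and Pomc.

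Around these genes, 60 further genes of cell death were measured, out of 69 on the lists, and the others were not analysed here. None passed limma's threshold, 33 were higher and 27 lower (44.9% of all genes were higher), and their median on the log2 scale was 0.0098. At an unadjusted p under 0.05 there were 3 (5%, against 2.44% of all probe sets), and 5 had groups that did not overlap (8.33%, against 6.36%), both counted over main probe sets. The 3 were Bmf, Perp and Tnfsf10, and the 5 were these with Casp12 and Map3k12. The shares of all probe sets take in dimmer ones as well. In a limma fit with 1 probe set per gene, 516 of 18193 genes reached an unadjusted p under 0.05.

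Bmf is a BH3-only gene whose protein is held at the cytoskeleton until cells detach or are stressed. Its main probe set, 1454880_s_at, read 7.09, 6.86 and 6.69 in POMCDicerKO and 6.57, 6.45 and 6.45 in controls. All POMCDicerKO values were higher, with a log2 fold change of 0.39 ± 0.11 (SE), or 1.31-fold (unadjusted limma p of 0.00683; adjusted p = 1; exact permutation p = 0.1). The 2 dimmer Bmf probe sets gave 0.044 (1458325_x_at) and 0.033 (1422995_at), with overlapping groups, and the mean of all its probe sets was at 0.16. With single arrays left out the main probe set lay between 0.28 and 0.48.

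Like Bid and Bmf, the other BH3-only genes did not pass limma's threshold. Bad, held inactive by survival kinases, was at -0.11 at its main probe set, 1416582_a_at. A second bright Bad probe set, 1416583_at, was at -0.22 (unadjusted limma p of 0.0475; adjusted p = 1; exact permutation p = 0.2), and both had overlapping groups. Bik, of the endoplasmic reticulum, was at 0.13 in a dim main probe set with a mean of 4.72, and at 0.0086 without POMCDicerKO 3. The other Bik probe sets were at -0.089 (1420362_a_at) and -0.0071 (1420363_at), and the mean of all Bik probe sets was at 0.012. By main probe sets, 5 of the 9 BH3-only genes measured were higher and 4 lower, with a median of 0.011. Bmf, Bbc3, Bcl2l11, Bak1 and Hrk are known targets of miR-29 in maturing neurons. Of these 5, Bmf, Bak1 and Hrk were higher, Hrk at 0.011, and Bbc3 and Bcl2l11 lower, with a median of 0.011.

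The 5 survival genes measured (4 higher, 1 lower) had a median of 0.039, with Bcl2l2, or BCL-W, at 0.039 and Bcl2l10 at 0.019. The effector list held Bak1 and Bok, with Bok at -0.054. Of 8 caspases, 2 were higher and 6 lower, with a median of -0.068, where Casp12, tied to endoplasmic reticulum stress, was at -0.12, the inflammatory caspase Casp4 at -0.12 and the executioner Casp6 at -0.081. Casp12 is a case where probe sets opposed each other without overlap of the groups: 1418981_at was at -0.12 and 1449297_at at 0.16, both with means below 5. Apoptosome and mitochondrial release genes had a median of -0.0085 over 6 genes, with Htra2 at -0.069, Diablo at -0.039 and Apaf1 at -0.010. Inhibitors of apoptosis had a median of 0.028 over 5, with Xiap, which blocks caspases directly, at 0.050, Birc3 at -0.14 and Birc5 at -0.12, or -0.031 without control 3. A dim Xiap probe set, 1421394_a_at, with a mean of 4.05, was at 0.16 without overlap of the groups (exact permutation p = 0.1). The other Xiap probe sets had overlapping groups.

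Among 9 genes of the death receptor pathway, 4 were higher and 5 lower, with a median of -0.0062. Tnfsf10, the ligand TRAIL, read 4.86, 4.88 and 4.87 in POMCDicerKO and 4.96, 5.15 and 5.13 in controls at 1439680_at. All POMCDicerKO values were lower (log2 fold change -0.21 ± 0.073, SE; unadjusted limma p of 0.0211; adjusted p = 1; exact permutation p = 0.1), in a probe set with a mean below 5. The other Tnfsf10 probe sets had overlapping groups, at -0.015 (1459913_at) and -0.13 (1420412_at), and the mean of all Tnfsf10 probe sets was at -0.12. Tnfrsf10b, the TRAIL receptor, was at 0.25 in a main probe set with a mean of 4.07. It stood at 0.099 without POMCDicerKO 1 and at 0.43 without POMCDicerKO 2, and its other probe set, 1422344_s_at, was at 0.011. Tnf was at 0.12, and at 0.078 without POMCDicerKO 2.

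Of 11 genes of the p53 list, 9 were higher and 2 lower, with a median of 0.044, where 44.9% of all genes were higher. The 9 lay between 0.012 (Gadd45a) and 0.17 (Cdkn1a), and the list was not tested as a set. Perp, a p53 target and desmosome protein, read 6.74, 6.85 and 7.04 in POMCDicerKO and 7.37, 7.14 and 7.11 in controls at 1416271_at. All POMCDicerKO values were lower, at -0.33 ± 0.10 (SE; unadjusted limma p of 0.0141; adjusted p = 1; exact permutation p = 0.1). Phlda3 and Zmat3, further p53 targets, were at 0.14 and 0.091, with overlapping groups. Both were highest on POMCDicerKO 1, and without that array Phlda3 was at 0.024 and Zmat3 at 0.010.

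Upstream kinases and factors had a median of 0.018 over 8 genes, with Mapk9, the kinase JNK2, at -0.093, Map3k12 (DLK), which starts neuronal stress signalling, at -0.088, and Ddit3, or CHOP, of the stress response, at 0.089. At its main probe set, 1417115_at, Map3k12 read 9.70 to 9.75 in POMCDicerKO and 9.79 to 9.87 in controls, without overlap. Map3k12 1438908_at pointed the other way, at 0.26 with overlapping groups, and the mean of all Map3k12 probe sets was at 0.011. A second Mapk9 probe set, 1421877_at, was at -0.12 without overlap of the groups (exact permutation p = 0.1). The third, 1421876_at, was at -0.036 with overlapping groups. Ddit3 also had a dimmer probe set, 1443897_at, at 0.22 with overlapping groups (unadjusted limma p of 0.0438; adjusted p = 1; exact permutation p = 0.2). Caspase substrates and nuclease genes had a median of -0.082 over 5, with Dffa at -0.099 and Parp1 at -0.10, or -0.013 without POMCDicerKO 3. Gsn, an actin-severing caspase substrate also made by myelinating oligodendrocytes, was at 0.33. Its arrays read 10.85, 10.30 and 10.36 in POMCDicerKO and 10.28, 10.33 and 9.93 in controls, highest on POMCDicerKO 1, the array with the highest myelin markers, and it was at 0.15 without that array. A dim Gsn probe set, 1456569_x_at, with a mean of 4.36, was at 0.33 without overlap of the groups (exact permutation p = 0.1). The other Gsn probe sets had overlapping groups. The part of the myelin difference in Gsn was not tested.

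**Figure D4:**
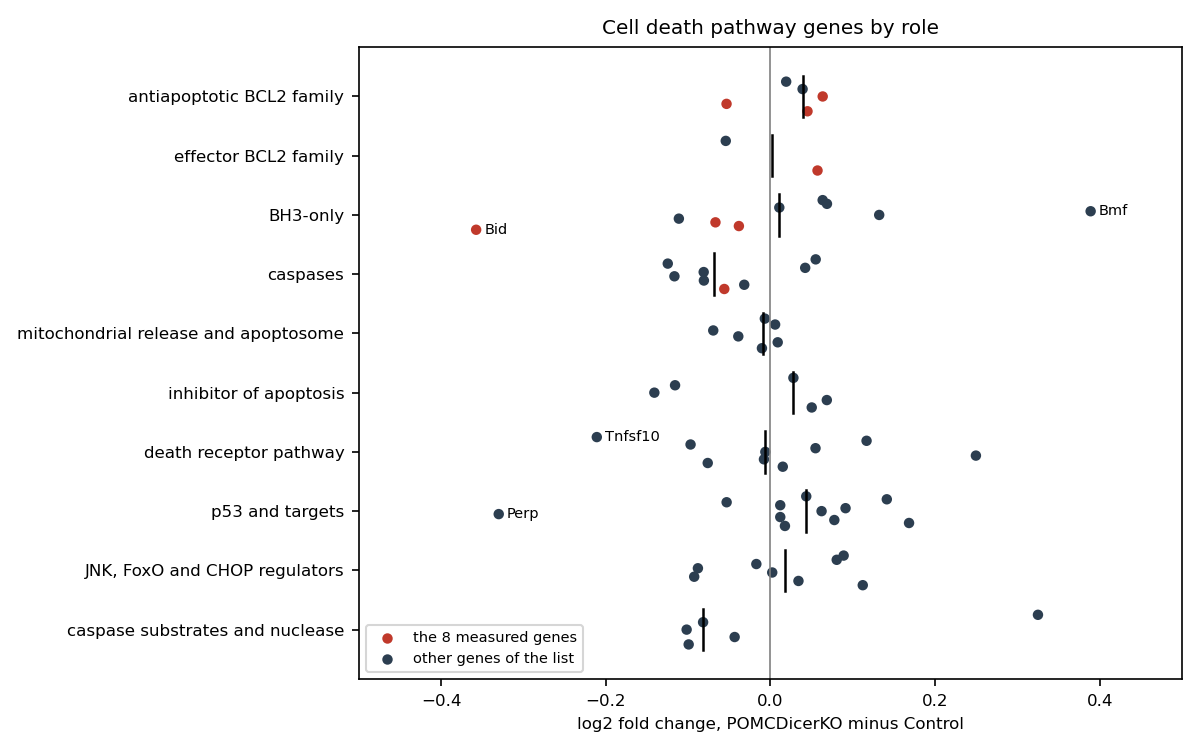
Log2 fold change, POMCDicerKO minus Control (x axis), of the main probe set of each measured gene on 10 lists of cell death genes (rows), red for the 8 measured genes described above and dark for the others. Vertical bars are list medians, which lie between -0.082 and 0.044, and names mark genes with an unadjusted p under 0.05, none of which passed the adjusted threshold.

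For each of the 8 genes the nearest profile was sought among 11742 genes with a mean of at least 6, by the root mean square difference over the 6 arrays after centring each gene on its own mean. Bbc3 lay nearest to Bap1 (0.0096), Bak1 to 1500009C09Rik (0.011), Bcl2l1 to Tlcd5 (0.012) and Bcl2 to Ap4s1 (0.015). Bcl2l11 lay nearest to Bphl (0.018), Casp9 to Sema4b (0.018) and Mcl1 to Tmem263 (0.024). Bid had the most distant neighbour, Sh3bgr (0.087), and also the largest spread of its own, 0.23 about its mean. With 6 arrays such neighbours describe these values only.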

How the data were processed

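Per the submitters' processing notes the authors made the deposited log2 values with RMA and the affy package, of unstated version. RMA corrects background, normalises arrays by quantiles and summarises probes, so a difference shared by most transcripts was removed before deposit. Groups came from the sample titles, and 0 sample columns were left unused. Of 45101 probe sets, 64 controls were left out. Symbols came from the platform annotation (34945 probe sets with 1 symbol, 932 with several, 9160 not listed), of which 34741 were found by Entrez identifier in the RefSeq table of GRCm38.p6, which was used for names and chromosomes. Groups were compared in R 4.3.3 with limma 3.58.1 (lmFit, eBayes), adjusting by Benjamini-Hochberg over 45037 probe sets and a threshold of 0.05. The number of arrays, 3 a group, limits precision. Single values also got a two-sided exact permutation test, which cannot go below 0.1. The scripts were tested on simulated data. Genes and lists were chosen with earlier results of these data known. Besides the genes described, Pomc, Dicer1 and the 3 genes of smallest unadjusted p on each list, beside any past the threshold, are named, as is the gene of nearest profile. Casp12 1449297_at, Xiap 1421394_a_at, Mapk9 1421877_at and Gsn 1456569_x_at were singled out after their values were seen. No replicate had a duplicate array (0 pairs). Same-numbered samples correlated in their deviations from group means at 0.13, 0.079 and 0.12, and the labels state no pairing.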

Additional observations from a re-analysis of the deposited data

How the results depend on the processing

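Of the 29 probe sets, 0 passed limma's adjusted threshold under any of 15 alternatives, and of the cell death genes 0 passed under 16. An unadjusted p under 0.05 was reached by 1 to 3 of these BCL2 family and caspase probe sets. The count was 1 without moderation, with a mean of at least 6 required, and with 1 probe set per gene. The last 2 settings kept only 18 and 8 of the 29, without the dim Bid and Bcl2l1 probe sets among the 3. Across the array, 1197 of 45037 probe sets reached it without moderation, 427 with a mean of at least 6, and 516 with 1 probe set per gene. Over all probe sets 1 passed with a trended and robust prior, 1 without controls 1 and 2, and 0 to 2 with single arrays left out. Leaving out controls 1 and 2 together, and averaging a gene's probe sets for the median, were chosen after seeing the data. The median of the main probe sets was -0.046, between -0.066 and 0.017 with single arrays left out, the last without POMCDicerKO replicate 1. Among the BCL2 family and caspase genes described in full, Bid and Bbc3 kept their sign under every alternative, Bid between -0.49 and -0.23. Bbc3 has a single probe set, so averaging could not change it. Bmf also kept its sign, as did many other named genes, among them Bad, Gsn, Perp and Tnfsf10. With the replicate number as a block the median was -0.046, and 2 of the 29 were under an unadjusted p of 0.05. Of all 45037 probe sets, 1396 were under it with this block. In their deviations from group means, all 3 samples of each group correlated best with the other group's sample of their own number. These correlations were low, between 0.079 and 0.13. As each group was centred on its own mean, every sample has some partner with which its correlation is not negative. The labels state no pairing, and whether the samples were paired was not tested. Averaging a gene's probe sets turned the sign of Bak1 (-0.0017), Bcl2 (-0.028), Bcl2l1 (0.062), Bcl2l11 (0.044), Casp12 (0.018), Casp6 (0.0070), Diablo (0.054) and Map3k12 (0.011). Without controls 1 and 2 Bcl2 was at -0.013, Dicer1 at -0.012 and Hrk at -0.041, and with array weights Apaf1 was at 0.027 and Dicer1 at -0.0077. With single arrays left out, the sign also turned for Bcl2l11 (-0.078 to 0.015), Casp9 (-0.12 to 0.019), Mcl1 (-0.011 to 0.16), Apaf1 (-0.11 to 0.060), Bcl2l10 (-0.056 to 0.10), Bcl2l2 (-0.010 to 0.081), Bok (-0.13 to 0.038), Hrk (-0.028 to 0.036) and Dicer1 (-0.029 to 0.043). The cause of these turns was not tested. Of the 29 probe sets 11 had a mean below 6, and signal over background could not be read from these values, which hold no detection calls.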
